A study of Mus musculus with 18 samples.

Results

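The circular RNAs described here came from genes that encode protein kinases or a kinase subunit, namely Tlk1, Vrk2, Clk1, Cdk8, Egfr and Phkb. There were 6 of them among the 434 in the deposited table. Of these, 3 were chosen by their exact positions (in Tlk1, Vrk2 and Clk1), and 3 were the only rows lying inside the GRCm38 loci of Cdk8, Egfr and Phkb. A circular RNA forms when splicing joins an exon's end to the start of an exon before it, closing a ring, and reads across that back-splice junction count it.

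The samples were livers of male C57BL/6 mice, 45 at the start at 6 weeks of age and 15 per group, of which 6 per group were sequenced in week 22. CCl4+PZH mice received intraperitoneal carbon tetrachloride (CCl4), a hepatotoxic solvent given to produce liver tumours, 2 times a week, together with daily gavage of Pien Tze Huang (PZH, a Chinese herbal and animal-derived preparation). CCl4 mice received the same injections with water by gavage, and control mice received olive oil injections with water by gavage, so both CCl4 groups share the toxin. The protocols in the labels write both PTH and PZH for the medicine, taken here as the same, and give no dose.

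Protein kinases transfer phosphate from ATP to proteins and so switch signalling, the cell cycle, splicing and metabolism. In liver, receptor tyrosine kinases such as EGFR carry growth signals to hepatocytes during regeneration, and phosphorylase kinase starts the breakdown of glycogen. A circular RNA made from a kinase gene need not yield a kinase, and the messenger RNA of the hosts was not analysed here.

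The 18 libraries held 900 to 2840 back-splice reads each and 25803 in all. Values are CPM, reads scaled to a library total that the sources do not define, and summed CPM per library ran from 40.4 (control 3) to 550 (control 4), both extremes lying among the controls. A value of 0 allows up to 3 reads, which is 0.135 to 0.918 CPM depending on the library; only counting error is covered, as PCR copies of 1 molecule are counted separately. Every listed row is above 0 in at least 9 of 18 libraries. No pair of libraries in a group agreed within sampling noise (lowest chi-square per degree of freedom 2.57 over 45 pairs). Of markers of liver cell types, 5 of 17 hepatocyte genes and 2 of 9 macrophage genes (Adgre1 and Mertk) hosted circular RNAs, and 0 of 7 endothelial and 0 of 6 cholangiocyte genes did. In whole liver, fewer cells of a type and less RNA per cell cannot be told apart.

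On the log2 scale, those of Tlk1 and Vrk2 had the largest differences of the 6 between CCl4 and control livers. Both had reads in all 6 CCl4 livers, while the controls held 2 reads of Tlk1 and none of Vrk2. These circular RNAs are in the table largely through CCl4-exposed livers, so their tests against control are conditional on that and given as a description. Neither passed limma's test adjusted over the whole table, and both passed edgeR's test of CCl4 against control on the recovered reads with TMM scaling, which called 1.15% of the table. Leaving out the library CCl4 4 ended both calls (edgeR adjusted p = 0.0771 for Tlk1 and 0.0801 for Vrk2), and for Vrk2 leaving out any of 4 controls also did. Circular RNAs of Egfr, Cdk8 and Clk1 were measurable in all 3 groups, with wide spread between mice. That of Phkb was the sparsest, and 14 of its 23 reads came from CCl4+PZH livers. It was above 0 in 9 libraries, the fewest of any listed row, so its tests are conditional on that and given as a description.

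Positions are given on GRCm38, and strands and gene bounds come from RefSeq (GRCm38.p6). The Tlk1 circular RNA spans 16992 bp of chromosome 2 (70770004 to 70786995) and starts 38821 bp from the 5′ end of its minus-strand gene. That of Vrk2 spans 15865 bp of chromosome 11 (26534211 to 26550075), 43937 bp from the 5′ end of a gene also on the minus strand. The plus-strand genes Cdk8 (chromosome 5, 146259505 to 146271735, 12231 bp) and Phkb (chromosome 8, 85875634 to 85901957, 26324 bp) host theirs 28710 bp and 34781 bp from their 5′ ends. The Egfr circular RNA is a 2150 bp segment of chromosome 11 (16881464 to 16883613), 129261 bp into a plus-strand gene of 161705 bp. That of Clk1 spans 371 bp of chromosome 1 (58417013 to 58417383) and was the shortest of the 6, where the median span over the table was 4691 bp. Each lies wholly within its gene, and no other annotated gene overlaps any of them; exons and introns were not used here.

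Mean level over the 18 libraries ran in the order Egfr, Tlk1, Cdk8, Clk1, Vrk2 and Phkb, and each value counts reads at a single junction. Egfr stood at 0.971 ± 0.678 CPM and was above 0 in 16 libraries, with 130 reads in all. Tlk1 stood at 0.716 ± 1.38 CPM, Cdk8 at 0.659 ± 0.726 CPM and Clk1 at 0.531 ± 0.838 CPM (SD, n = 18). Vrk2 at 0.232 ± 0.312 CPM and Phkb at 0.159 ± 0.221 CPM were lowest, where the median circular RNA of the table had 39 reads and these had 31 and 23. No neighbours in this order differed by more than their spread. By the share of reads in the library of highest CPM, Tlk1 was the most uneven, with 36.8% in CCl4+PZH 6. Egfr was the least, with 10.8% in the same library, though control 8 had more of its reads (15 of 130).

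**Figure D1:**
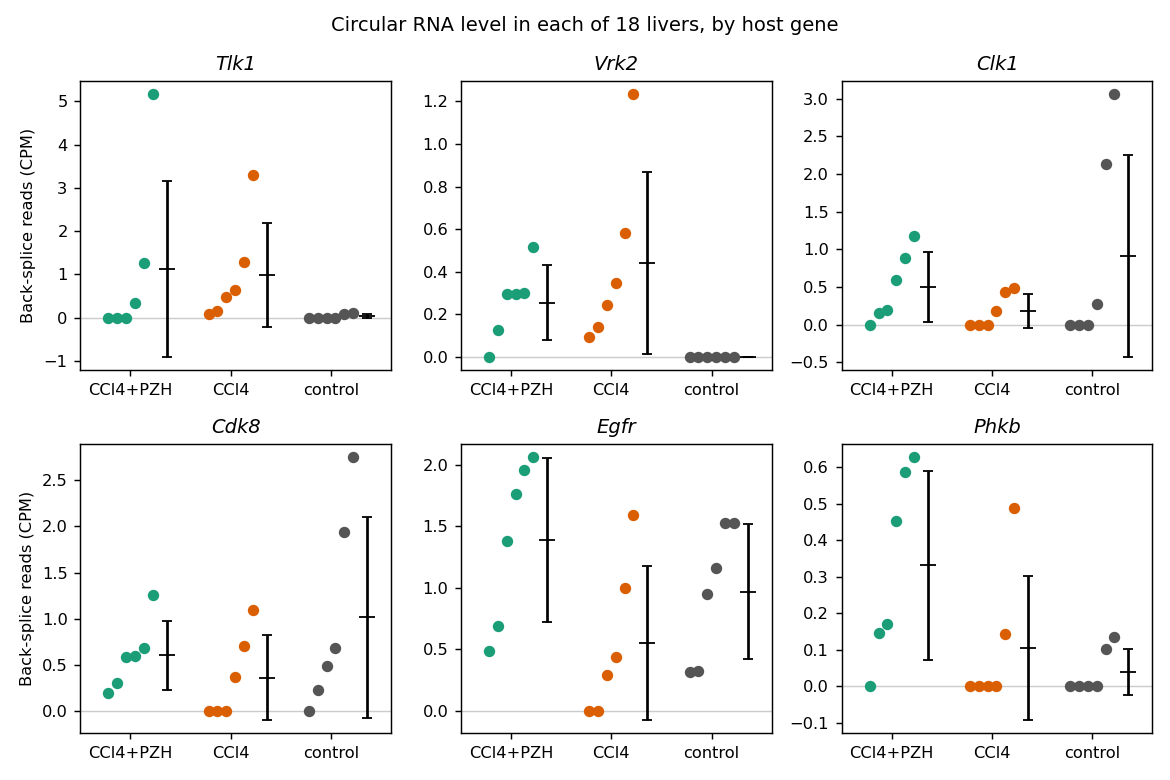
Level of each circular RNA (vertical axes, CPM, a separate scale per host gene) in every liver, by group; points are mice, and the bar beside them is the mean with its SD (n = 6). Vrk2 is at 0 in all 6 controls, and Tlk1 does not exceed 0.102 CPM there, while Clk1 and Cdk8 have their highest values in controls.

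Among kinases of the nucleus, TLK1 is a serine/threonine kinase that acts on the histone chaperone ASF1 during chromatin assembly. Its circular RNA ranged over 0, 0.172 and 5.17 CPM in CCl4+PZH livers (lowest, median and highest), over 0.0874, 0.566 and 3.29 CPM in CCl4 livers, and over 0, 0 and 0.102 CPM in controls. It was above 0 in 3 CCl4+PZH, 6 CCl4 and 2 control livers. The high values came from CCl4+PZH 6 with 35 reads and CCl4 4 with 24 reads, and CCl4 and control values overlapped only in that CCl4 7 lay at 0.0874 CPM, below control 8. The means were 1.13 ± 2.04 CPM in CCl4+PZH, 0.991 ± 1.21 CPM in CCl4 and 0.0306 ± 0.0478 CPM in control livers (SD, n = 6 each).

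On the log2(CPM + 0.137) scale, which understates changes of low values, limma gave 2.17 (SE 0.69, 95% interval 0.81 to 3.53) for Tlk1 in CCl4 against control. This did not pass (adjusted p = 0.154), and its p ranked 5 among 434. In that comparison 0.691% of all circular RNAs passed. The median of all was −0.28, and relative to it Tlk1 stood at 2.45. Tlk1 was above 0 in 9 of 12 CCl4-exposed livers but in 2 of 6 controls. Every listed row is above 0 in at least 9 libraries, so Tlk1 is listed largely through the exposed livers. Its tests against control are conditional on that and are given as a description. An exact permutation test of the mean CPM gave p = 0.00433 (adjusted over all 434, p = 0.376). edgeR on the recovered reads with TMM scaling, which called 1.15% of the table, placed Tlk1 past the threshold (log2 4.32, adjusted p = 0.0022). Without CCl4 4 the edgeR call was lost (log2 3.62, adjusted p = 0.0771). Within limma, Tlk1 passed when each library was scaled to its own reads in the table (adjusted p = 0.0195) and under quantile normalization (adjusted p = 0.00899), but it did not with edgeR on the implied totals (adjusted p = 0.0618) or with DESeq2 (adjusted p = 0.338).

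In CCl4+PZH against control, Tlk1 had a log2 difference of 1.49 (limma SE 0.69, adjusted p = 0.763), where 0.23% of all passed. edgeR with TMM called it (log2 4.2, adjusted p = 0.00553; 0.461% of all called), and without CCl4+PZH 6 this was lost (log2 2.47, adjusted p = 0.813). The call held with edgeR on the implied totals (adjusted p = 0.0347), and DESeq2 did not make it (adjusted p = 0.350). CCl4+PZH and CCl4 livers did not differ in Tlk1 beyond their spread (limma log2 −0.68, 95% interval −2.04 to 0.68, adjusted p = 0.918), and the direction was not settled, since mean CPM was higher in CCl4+PZH by 0.137 and edgeR on the implied totals gave 0.19. In this comparison 0.0% of all circular RNAs passed.

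Tlk1 has a second circular RNA in the table, from 70768862 to 70786995, which shares the end at 70786995 and runs 1142 bp further on the other side. The shared end lies toward the 5′ end of the gene. The shorter circular RNA had 47 of 99 Tlk1 reads (47.5%) in CCl4+PZH livers, 46 of 68 (67.6%) in CCl4 livers and 2 of 53 (3.77%) in controls. The shorter is listed largely through CCl4-exposed livers, so these shares are conditional on that and are given as a description. The CCl4+PZH share rested on CCl4+PZH 6, with 35 of the 47 reads; without it the share was 12 of 53 (22.6%), and 3 of the 6 CCl4+PZH livers had no read of the shorter. In CCl4 livers, CCl4 4 held 24 of the 46 reads, and without it the share was 22 of 44 (50.0%). With single controls left out, the control share lay between 2.22% (without control 5) and 5.71% (without control 4). The longer had 52 reads in CCl4+PZH livers, 22 in CCl4 livers and 51 in controls, of which control 4 held 18 and control 8 held 19. It thus dominated in controls, where 2 livers had reads of both, 2 only of the longer and 2 of neither. In CCl4 livers 5 had both, and CCl4 4 had only the shorter. The longer was lower in CCl4 than in control by a log2 value of −0.53, which did not pass (limma SE 0.74, adjusted p = 0.862; with controls 2, 3 and 4 alone the value was 0.23). It was higher in CCl4+PZH than in CCl4 by 1.09 (limma SE 0.74, adjusted p = 0.804), and against control the value was 0.56 (limma adjusted p = 0.908; negative with controls 1, 5 and 8 alone). The difference between the 2 circular RNAs was not tested.

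**Figure D2:**
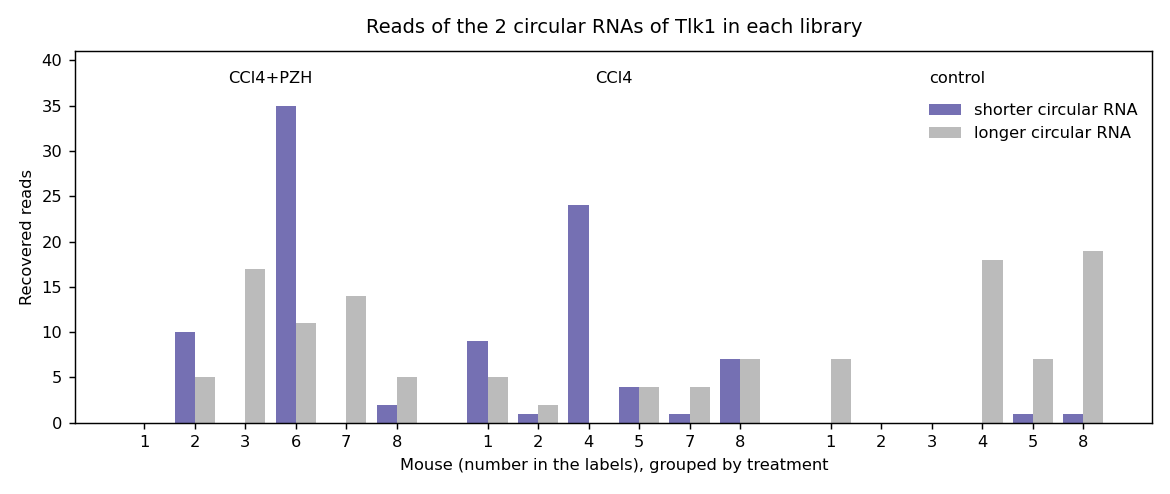
Recovered back-splice reads (vertical axis) of the shorter and the longer circular RNA of Tlk1 in each library (horizontal axis, mice by their number in the labels). The shorter reaches 35 reads in CCl4+PZH 6 and 24 in CCl4 4 and has at most 1 read in a control, while the longer reaches 19 in a control.

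CLK1 phosphorylates SR proteins, which govern the choice of splice sites. Its circular RNA ranged over 0, 0.392 and 1.18 CPM in CCl4+PZH livers, over 0, 0.0874 and 0.489 CPM in CCl4 livers, and over 0, 0.136 and 3.06 CPM in controls. It was above 0 in 5 CCl4+PZH, 3 CCl4 and 3 control livers. The controls split widely, with 3.06 CPM in control 2, 2.13 CPM in control 4 and 0 in 3 others. The log2 value of CCl4+PZH against CCl4 was 0.91 (limma SE 0.69, adjusted p = 0.851). That of CCl4 against control was −0.79 (adjusted p = 0.795), and with controls 1, 5 and 8 alone it was 0.38. That of CCl4+PZH against control was 0.12 (95% interval −1.24 to 1.48, adjusted p = 0.988) and turned negative under several settings.

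CDK8 is the kinase of the Mediator complex, which links transcription factors to RNA polymerase II. Its circular RNA ranged over 0.194, 0.589 and 1.26 CPM in CCl4+PZH livers, over 0, 0.184 and 1.10 CPM in CCl4 livers, and over 0, 0.585 and 2.75 CPM in controls. All 6 CCl4+PZH livers were above 0, against 3 CCl4 livers and 5 controls. As a share of the reads in the table, which takes out the spread of summed CPM, it averaged 2.80 ± 1.42 per 1000 reads in CCl4+PZH, 2.81 ± 3.21 in CCl4 and 4.06 ± 2.39 in control livers (SD, n = 6 each). None of the log2 values passed in limma, at 1.01 for CCl4+PZH against CCl4 (adjusted p = 0.851), −1.14 for CCl4 against control (adjusted p = 0.683) and −0.13 for CCl4+PZH against control (adjusted p = 0.988; positive under several settings).

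Among kinases of membranes, VRK2 is a member of the vaccinia-related kinase family anchored in the endoplasmic reticulum. Its circular RNA ranged over 0, 0.295 and 0.515 CPM in CCl4+PZH livers and over 0.0919, 0.297 and 1.23 CPM in CCl4 livers, and was listed at 0 in all 6 controls. It was above 0 in 11 of the 12 CCl4-exposed livers, the exception being CCl4+PZH 1. CCl4 and control values did not overlap, which held for 0.691% of the table. Counts were low, with 10 reads in CCl4+PZH, 21 in CCl4 and 0 in control livers. The mean of CCl4+PZH livers was 0.255 ± 0.176 CPM and that of CCl4 livers 0.441 ± 0.426 CPM (SD, n = 6 each), against a floor of 3 reads per library that averaged 0.432 CPM over the controls; the CCl4 mean was 1.02 times this floor and the CCl4+PZH mean below it. Zero in all 6 controls was shared by 2 other circular RNAs of the table, 0.691% in all. Since every listed row is above 0 in at least 9 libraries, such a row has reads in at least 9 of the other 12.

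The fitted log2 value of Vrk2 in CCl4 against control was 1.80 (limma SE 0.64, 95% interval 0.56 to 3.05, adjusted p = 0.199), which is 2.09 above the median of the table. A row at 0 in all controls is in the table only through the CCl4-exposed livers, so the tests of Vrk2 against control are conditional on that and are given as a description. The exact permutation p was 0.00216, the smallest that 6 against 6 allows (adjusted over all 434, p = 0.313). edgeR with TMM called it (adjusted p = 0.0239), and 5 of 12 libraries left out singly ended that call, CCl4 4 and controls 2, 4, 5 and 8, with adjusted p up to 0.0861. DESeq2 gave adjusted p = 0.0606 with its default size factors and 0.0109 with the poscounts factors, chosen after the data were seen, which allow zeros. In CCl4+PZH against control the log2 value was 1.37 (limma SE 0.64, adjusted p = 0.763; exact permutation p = 0.0152 before adjustment), and edgeR with TMM did not call it (adjusted p = 0.335). CCl4+PZH and CCl4 did not differ beyond their spread (limma log2 −0.44, 95% interval −1.68 to 0.81, adjusted p = 0.954).

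Circular RNAs of Tlk1 and Vrk2 had lower medians in controls than in either CCl4 group of livers. So did those of the macrophage, lymphocyte, and stellate cell and matrix genes, with overlap. Summed CPM for the macrophage genes ranged over 0.680, 1.41 and 3.02 in CCl4+PZH livers (lowest, median and highest), over 0.368, 1.85 and 4.66 in CCl4 livers, and over 0, 0.764 and 2.71 in controls. For the hepatocyte genes it ranged over 0.583, 1.55 and 3.47 CPM in CCl4+PZH livers, over 0.411, 0.898 and 1.14 CPM in CCl4 livers, and over 0.673, 2.90 and 10.7 CPM in controls. Of the lymphocyte genes 1 of 8 had a circular RNA, Ikzf1, with medians of 0.538 CPM in CCl4+PZH, 0.505 CPM in CCl4 and 0.0816 CPM in control livers. Of the stellate cell and matrix genes 1 of 9 did, Mmp15, with medians of 0.516 CPM in CCl4+PZH, 0.292 CPM in CCl4 and 0.119 CPM in control livers. The part of cell composition in the results was not tested. The comparison with controls also rested on 2 sets of control libraries, since controls 2, 3 and 4 have later accessions than the other 15 libraries. With controls 1, 5 and 8 alone, Tlk1 had a log2 value of 1.92 and Vrk2 of 1.80 in CCl4 against control (limma adjusted p = 0.428 and 0.463), and with controls 2, 3 and 4 alone 2.42 and 1.80 (adjusted p = 0.365 for both).

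EGFR is the receptor tyrosine kinase for epidermal growth factor and related ligands. Its circular RNA ranged over 0.486, 1.57 and 2.07 CPM in CCl4+PZH livers, over 0, 0.365 and 1.59 CPM in CCl4 livers, and over 0.314, 1.06 and 1.53 CPM in controls. The means were 1.39 ± 0.669 CPM in CCl4+PZH, 0.553 ± 0.628 CPM in CCl4 and 0.968 ± 0.548 CPM in control livers (SD, n = 6 each). All CCl4+PZH and control livers were above 0, while CCl4 4 and CCl4 8 were at 0, and the 3 groups overlapped.

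The difference of CCl4+PZH from CCl4 was 1.59 on the log2 scale (limma SE 0.76, 95% interval 0.11 to 3.08) and did not pass (limma adjusted p = 0.804). The exact permutation p was 0.0563. CCl4 against control gave −1.08 (limma SE 0.76, adjusted p = 0.704), and CCl4+PZH against control 0.51 (limma SE 0.76, adjusted p = 0.927). Per 1000 reads in the table the means were 6.65 ± 3.0 in CCl4+PZH, 3.28 ± 3.53 in CCl4 and 5.04 ± 2.51 in control livers (SD, n = 6 each). The comparisons of CCl4+PZH with CCl4 and of CCl4 with control share the CCl4 libraries, so the low CCl4 values enter both.

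PHKB is the regulatory beta subunit of phosphorylase kinase, which activates glycogen phosphorylase; it is not itself a kinase. Its circular RNA ranged over 0, 0.312 and 0.629 CPM in CCl4+PZH livers, over 0, 0 and 0.489 CPM in CCl4 livers, and over 0, 0 and 0.135 CPM in controls. It had 14 reads in 5 CCl4+PZH livers, 5 reads in 2 CCl4 livers and 4 reads in 2 controls. In CPM the 5 CCl4+PZH livers with reads lay above all 6 controls, though CCl4+PZH 6 and CCl4+PZH 8 had 1 read each, and CCl4+PZH 1 was at 0. As a share of the reads in the table this order did not hold, since CCl4+PZH livers reached at most 2.68 per 1000 and control 3, with 3 reads, had 3.33 per 1000, the highest of the 18 libraries. Against control, CCl4+PZH was higher by a log2 value of 1.24 (limma SE 0.52, 95% interval 0.21 to 2.27), which did not pass (adjusted p = 0.763) and ranked 7 of 434 by p. The exact permutation p was 0.0195 (adjusted over all 434, p = 0.924). Phkb had 5 of its 9 libraries with reads among CCl4+PZH livers, and 9 is the fewest of any listed row. Its listing thus depends on those livers, so its rank and p-values are conditional on that and are given as a description. The mean share was 1.43 ± 1.07 per 1000 in CCl4+PZH livers and 0.646 ± 1.33 per 1000 in controls (SD, n = 6 each). Against CCl4 the value was 1.0 (limma SE 0.52, adjusted p = 0.804), and in CCl4 against control 0.24 (adjusted p = 0.884; negative without CCl4 5).

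**Figure D3:**
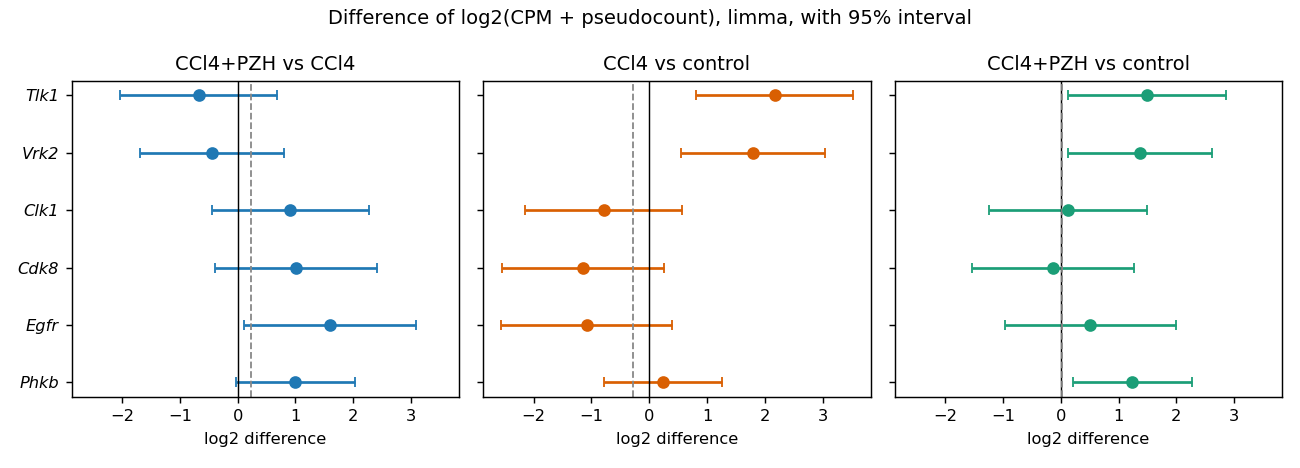
Difference on the log2(CPM + pseudocount) scale (horizontal axis) for each host gene in the 3 comparisons, with points for the limma estimate, bars for its 95% interval and a dashed line at the median of all 434. In CCl4 against control, Tlk1 (2.17) and Vrk2 (1.80) lie right of 0 with their intervals, while Clk1, Cdk8 and Egfr are negative with intervals that include 0.

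Over the 6 circular RNAs together, limma called 0 in each comparison, where it called 0.0% of the table in CCl4+PZH against CCl4, 0.691% in CCl4 against control and 0.23% in CCl4+PZH against control. edgeR with TMM called 0 of the 6 in CCl4+PZH against CCl4 (0.0% of the table), 2 in CCl4 against control (1.15%) and 1 in CCl4+PZH against control (0.461%). In CCl4+PZH against CCl4, 4 had positive and 2 negative log2 values, with a median of 0.96, where the median of all was 0.23 (303 positive and 131 negative). In CCl4 against control, 3 were positive and 3 negative with a median of −0.27, close to the −0.28 of all (161 positive and 273 negative). In CCl4+PZH against control, 5 were positive and 1 negative with a median of 0.88, where that of all was 0.02 (227 positive and 207 negative). At an unadjusted p under 0.05 stood Egfr in the first of these, Tlk1 and Vrk2 in the second, and Tlk1, Vrk2 and Phkb in the third, where such a p was met by 5.53%, 8.29% and 5.07% of the table. Tlk1, Vrk2 and Phkb are in the table largely through CCl4-exposed livers, so their log2 values, p-values and calls against control are conditional on that. The counts of signs and the medians of the 6 against control include them and are conditional in the same way. Comparisons that share a group are not independent.

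Pairs of the 6 ranged widely in how they moved across mice. Over 15 pairs, compared by their share of each library's table reads, the Spearman correlation over 18 libraries ran from −0.37 (Cdk8 and Egfr) to 0.77 (Egfr and Phkb). For Egfr and Phkb, rho was 0.769 (permutation p = 0.00041, adjusted over the 15 pairs p = 0.00615) and Pearson's r was 0.647 (permutation p = 0.00354, adjusted p = 0.0531). Both permutation tests moved libraries across the 3 groups, so differences between groups enter these p-values. The mean shares of both were highest in CCl4+PZH livers (6.65 per 1000 for Egfr and 1.43 for Phkb). Without the 2 libraries farthest from the median of Egfr, r was 0.745. Within groups rho was 0.371 in CCl4+PZH (exact permutation p = 0.497), 0.857 in CCl4 (exact permutation p = 0.0333) and 0.778 in control livers (exact permutation p = 0.133). Phkb was at 0 in 9 libraries, so this rests on few reads. For Tlk1 and Vrk2, which are both low in controls, no pooled relation is given. Within groups rho was 0.395 in CCl4+PZH and −0.0286 in CCl4 livers (exact permutation p = 0.45 and 1.0). Pearson's r was 0.245 in CCl4+PZH and 0.731 in CCl4 livers (exact permutation p = 0.65 and 0.163). Among CCl4 livers, CCl4 4 had the highest share of both.

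**Figure D4:**
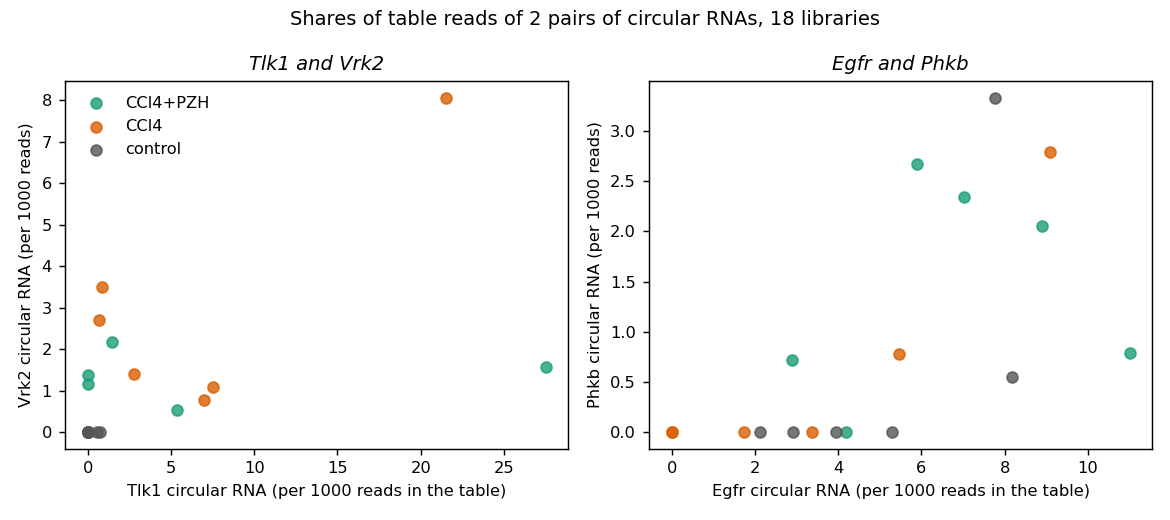
Share of each library's reads in the table (per 1000) for Tlk1 against Vrk2 and for Egfr against Phkb, with a point per library coloured by group. CCl4+PZH 6 has the most Tlk1, and CCl4 4 has the most Vrk2 (8.06 per 1000) and the next most Tlk1 (21.5 per 1000). The 9 libraries with reads of Phkb, other than CCl4+PZH 8, lie above all libraries without them in their share of Egfr.

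The circular RNA outside these hosts whose pattern was most like each, by Spearman correlation of the same shares over 18 libraries and among 427 candidates, was that of Dcaf17 for Tlk1 (rho 0.743), Adgre1 for Vrk2 (rho 0.696) and Ndufs1 for Clk1 (rho 0.805). For Cdk8 it was Upp2 (rho 0.701), for Egfr Mlxipl (rho 0.604) and for Phkb Fbxl17 (rho 0.605). Each is the highest of many and is given as a description, and the points share libraries and depth. Several matches rest on few reads, 18 in all for Upp2, 27 for Dcaf17 and 36 for Fbxl17. For Phkb the second candidate was almost as high (rho 0.603).

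Other kinase genes were represented by 24 circular RNAs in 23 genes, from a list of 533 kinases and kinase regulatory subunits. limma called 0 of the 24 in each comparison, in either direction, and edgeR with TMM also 0, near the shares of the whole table, which were 0.0% to 0.691% with limma and 0.0% to 1.15% with edgeR. At an unadjusted limma p under 0.05 stood 1 in CCl4+PZH against CCl4, Trpm7, where 5.53% of the table did, and 0 in CCl4 against control and in CCl4+PZH against control, where 8.29% and 5.07% did. Trpm7 is in the table largely through livers without PZH, so its p is conditional on that. In CCl4+PZH against CCl4, 14 were positive and 10 negative, with a median of 0.06 where all circular RNAs had 0.23 (303 positive and 131 negative). In CCl4 against control, 8 were positive and 16 negative (median −0.13, all −0.28 with 161 positive and 273 negative). In CCl4+PZH against control the counts were 11 and 13 (median −0.07, all 0.02 with 227 positive and 207 negative).

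Those named here had the smallest p in each direction of a comparison. Of the circular RNAs of Mark3 the longer is named, and the shorter (111592577 to 111604564, 41 reads in all) is not described. Higher in CCl4+PZH than in CCl4 was the value of Mark3, a kinase of microtubule regulation (chromosome 12, 111592577 to 111618383). Its mean was 0.762 ± 0.420 CPM for CCl4+PZH livers, against 0.252 ± 0.242 CPM for CCl4 livers (SD, n = 6 each; limma log2 1.32, adjusted p = 0.804), and 0.847 ± 0.694 CPM in control livers (CCl4 against control, log2 −1.24, adjusted p = 0.605). Lower in CCl4+PZH was the value of Trpm7, an ion channel with a kinase domain, at 0.0245 ± 0.0601 CPM against 0.324 ± 0.524 CPM in CCl4 (SD, n = 6 each; limma log2 −1.02, adjusted p = 0.804). Against control it was −0.55 (limma adjusted p = 0.882). Trpm7 was above 0 in 1 CCl4+PZH liver, 4 CCl4 livers and 4 controls. Every listed row is above 0 in at least 9 libraries, so Trpm7 is listed largely through livers without PZH. Its CCl4+PZH values and tests are conditional on that and are given as a description. Smg1, a kinase of nonsense-mediated decay, had 0.48 in CCl4 against control (limma adjusted p = 0.795), and Map2k1, which activates ERK kinases, 0.84 in CCl4+PZH against control (limma adjusted p = 0.882).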

How the data were processed

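Circular RNA was measured in 18 mouse livers, 6 per group. The deposited table holds CPM values for 434 circular RNAs. The submitters' processing notes name GRCm38 and the tools Bowtie2 2.5.1, HISAT2 2.2.1, StringTie 2.1.5, cutadapt 4.2 and FastQC 0.11.9. How the authors called circular RNAs, which total the CPM values use and whether rows were filtered is not given in the sources used here. The members, gene lists and tests were chosen with earlier results of these data known.

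Whole reads were recovered by dividing each value by that of 1 read; 7812 of 7812 values (100.0%) lay within 0.1 of a whole number. Implied totals ran from 3266800 to 22278600 reads. limma 3.58.1 (R 4.3.3) was fitted to log2(CPM + 0.13655), with all 434 rows, 18 libraries, 3 group means and a trend of variance on mean level. Tests were two-sided, adjusted by Benjamini-Hochberg over the table, at a threshold of 0.05. The pseudocount is the smallest value above 0 in each library, taken as a median over the 18, and the filter, above 0 in 6 or more libraries, removed no row. Alternatives ran on the recovered reads, with DESeq2 1.42.0 and edgeR 4.0.16; edgeR with TMM called 0 in CCl4+PZH against CCl4, 5 in CCl4 against control and 2 in CCl4+PZH against control. Each member was named; of other kinase genes, the circular RNA of smallest p in each direction per comparison; and the most similar row per member. The labels number mice, and do not say that a number pairs them; p-values measure the spread between these mice. Functions were tested on simulated data. Other computations used Python 3.11.15 with matplotlib 3.10.9, scipy 1.17.1, pandas 2.3.3 and numpy 2.4.6.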

Additional observations from a re-analysis of the deposited data

Results flagged for a closer look

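Values far from the rest of their group were sought by Dixon's test at its 95% limit. It was run on 21 sets of 6 mice (the 6 circular RNAs and the longer one of Tlk1, in 3 groups), and 3 sets held such a mouse. The limit's chance rate of 1 in 20 holds for normally distributed values. These are low counts with many zeros, so the number of sets is not compared with chance. For Tlk1, CCl4+PZH 6 stood at 5.17 CPM, where the next treated liver had 1.26 CPM, and CCl4 4 stood at 3.29 CPM, where the next CCl4 liver had 1.29 CPM. For Phkb, CCl4 5 stood at 0.489 CPM, where the next CCl4 liver had 0.143 CPM.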

How the results depend on the processing

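The number of circular RNAs called in CCl4 against control was 3. It was 1 with a pseudocount of 0.5 or 1, with edgeR on the implied totals, with controls 2, 3 and 4 only and with the replicate block, 5 when scaled to the table's own reads and with edgeR and TMM, and 1 to 6 with single libraries left out (1 without CCl4 1, 2, 7 or 8 or control 1, 4 or 8, and 6 without control 3). In CCl4+PZH against control it was 1, with 3 under array weights, 2 under edgeR with TMM or with implied totals, and 1 to 3 with single libraries left out (3 without control 2). The block on replicate number left 0 in CCl4+PZH against CCl4 and 1 in CCl4+PZH against control; over 13 same-numbered pairs the deviations correlated at −0.154 to 0.0794, with 0 above 0.1.

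Of 27 log2 differences, none was called by limma as fitted. Over 846 alternative values 785 kept their direction and stayed short of the threshold, 36 passed it (all for Tlk1 or Vrk2 against control) and 25 changed sign. Most of the 36 were unplanned refits of edgeR with TMM with 1 library left out, run only for Tlk1 and Vrk2. Such refits passed 11 times for Tlk1 in CCl4 against control and 11 times in CCl4+PZH against control. For Vrk2 in CCl4 against control they passed 7 times. These refits share most libraries and are not separate support. Tlk1 in CCl4+PZH against CCl4 was 0.19 with edgeR on implied totals and 0.75 with DESeq2, and the mean CPM differed by 0.137. Clk1 in CCl4 against control was 0.0835 with array weights and 0.38 with controls 1, 5 and 8. Clk1 in CCl4+PZH against control was −0.11 and −0.14 at pseudocounts of 0.5 and 1, −0.71 with edgeR on implied totals, −0.0919 with DESeq2, −1.05 with controls 2, 3 and 4 only, −0.412 CPM by mean, and −0.22 to 0.69 with single libraries left out (negative without CCl4+PZH 2 or 3 or control 3, 5 or 8). Cdk8 in CCl4+PZH against control was 0.0281 at a pseudocount of 0.05, 0.41 with array weights, 0.69 with controls 1, 5 and 8, and −0.61 to 0.27 with single libraries left out (positive without CCl4+PZH 1 or control 2 or 4). Phkb in CCl4 against control was −0.0921 (without CCl4 5) to 0.38 with single libraries left out. The longer Tlk1 circular RNA was 0.23 in CCl4 against control with controls 2, 3 and 4 only and −0.20 in CCl4+PZH against control with controls 1, 5 and 8. The cause of these changes was not tested. Totals of 23 to 130 reads per circular RNA over 18 libraries limit what can be detected. The mean filter of 0.2 CPM left out Phkb, and libraries of the third group were not left out.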
